A study of Homo sapiens with 33 samples.

Results

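HOXA2, HOXB2, MEIS1 and MEIS2 are 4 homeobox genes used here to read the position along the body axis of human stem cells differentiated with 2 sets of inhibitors. They were chosen by name, with earlier results of these data known. Each gene was followed by its probe with the highest mean signal, on 33 bead arrays, and the 4 are set beside the 10038 genes that were tested. All samples came from the established human embryonic stem cell line H9 (WA-09), grown on mouse embryonic fibroblasts and plated on Matrigel to differentiate. In the LSB arm the cells received LDN-193189, which blocks BMP type I receptors, and SB431542, which blocks the activin, nodal and TGF-beta receptors. The LSB3i arm received both of these plus CHIR 99021, an inhibitor of GSK3 that activates Wnt signalling, DAPT, a gamma-secretase inhibitor that blocks Notch, and SU5402, which blocks FGF receptors. No group went without LDN-193189 and SB431542, and no untreated stem cells were analysed here. There were 3 arrays per group, lettered A, B and C, on days 3, 5, 7, 9 and 15 of both arms and on day 2 of LSB, which makes 11 groups. The labels call LSB a neural and LSB3i a nociceptor differentiation, and give neither the days on which single inhibitors were present nor whether the 3 arrays came from separate cultures. P-values therefore measure the spread between these arrays, which may be technical.

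HOX genes encode homeodomain transcription factors and lie in 4 clusters, in which genes nearer the 3′ end are switched on further forward in the embryo. HOXA2 and HOXB2 belong to paralogue group 2, the most anteriorly expressed of the clustered genes: in mouse and chick they are active in the hindbrain rhombomeres, and Hoxa2 also in the cranial neural crest that fills the second pharyngeal arch. Forebrain and midbrain express no HOX genes. MEIS1 and MEIS2 encode TALE homeodomain proteins that bind DNA together with PBX and HOX proteins. Unlike HOX genes, they are also used in tissue without HOX expression, such as eye, lens and forebrain.

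In mouse, HOX, PBX and MEIS proteins act on composite sites near HOX genes, so the promoters of the members were searched on both strands for TGATNNAT, a form of the HOX-PBX site, and for TGACAG, the MEIS site. Windows of 300 bases, from 250 before to 50 after a start site, came from RefSeq (GRCh38.p14) and existed for 3 of the 4 members, with 2 for MEIS2. HOXA2 and 1 MEIS2 window are shown because they hold a match, in capitals. Both are read in the gene's direction from the minus strand, HOXA2 at chr7:27102634-27102933 and MEIS2 at chr15:37098647-37098946.
HOXA2: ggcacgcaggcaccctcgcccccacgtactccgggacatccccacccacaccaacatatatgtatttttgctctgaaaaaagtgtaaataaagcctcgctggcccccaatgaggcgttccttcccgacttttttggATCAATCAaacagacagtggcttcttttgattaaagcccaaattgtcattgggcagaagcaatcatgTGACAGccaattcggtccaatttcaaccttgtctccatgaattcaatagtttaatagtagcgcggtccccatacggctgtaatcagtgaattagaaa
MEIS2: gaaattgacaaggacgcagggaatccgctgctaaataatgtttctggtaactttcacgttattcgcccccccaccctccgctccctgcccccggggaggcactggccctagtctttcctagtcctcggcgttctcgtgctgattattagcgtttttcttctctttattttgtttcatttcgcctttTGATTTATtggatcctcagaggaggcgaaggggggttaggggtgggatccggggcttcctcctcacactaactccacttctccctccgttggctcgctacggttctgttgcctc
In HOXA2 the HOX-PBX letters start at -114 from the start site, in reverse complement, and the MEIS letters at -47. In MEIS2 the HOX-PBX letters start at -64. Of 35116 such windows over all genes, 7.4% held the HOX-PBX letters, 15.8% the MEIS letters and 1.4% both, as the HOXA2 window did. The other MEIS2 window (chr15:37099057-37099356) and that of MEIS1 (chr2:66434875-66435174) held no match. These are matches of letters, not measured sites.

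Over all arrays the mean signal lay between 298 and 872, and 9320 to 13743 of 48803 probes were detected, which here means a detection p under 0.01. Both lowest values belonged to LSB day 7 C. The number of arrays limits the precision, and the residual SD of a group ran from 0.213 (LSB day 5) to 0.813 (LSB day 7). By correlation, array A of LSB3i was closest to the LSB3i group of the preceding time point on days 5, 7 and 9, and arrays B and C of day 7 to that of day 9. On day 3, LSB3i A and B were both closest to the LSB group. In LSB, arrays A and B of day 7 were closest to day 5. All arrays were kept in their labelled groups, and calls of the 4 genes that rest on LSB3i array A before day 15 also have a value that leaves those 4 arrays out. At day 15 the LSB3i cells carried POU4F1, ISL1, NTRK3 and PRPH, markers of sensory neurons, on all 3 arrays, while NEUROG1, NEUROG2, RUNX1 and RET, also on that list, were not detected there. In these bulk samples, fewer cells of a type and less RNA per cell cannot be told apart.

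HOXA2 and HOXB2 were detected at one point of the whole study, LSB3i at day 15, and on no array of LSB. They entered the tests only because that group detected them. This fixed the direction of every test against that group, so their p-values there are no separate support. MEIS1 and MEIS2 rose in both arms to their highest levels at day 15, where MEIS2 was called higher in LSB3i and MEIS1 was not. At day 3, MEIS2 was already detected on 2 of the 3 arrays in each arm, and MEIS1 on none in either arm. Values are log2 normalized intensities, in which 1 unit is a doubling. Differences carry a standard error, with 3 arrays per group, taken from the gene's spread pooled over all 11 groups. It is not the spread of the compared groups alone. A gene counts as called when its Benjamini-Hochberg adjusted p is under 0.05 and it differs at least 2-fold.

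**Figure D1:**
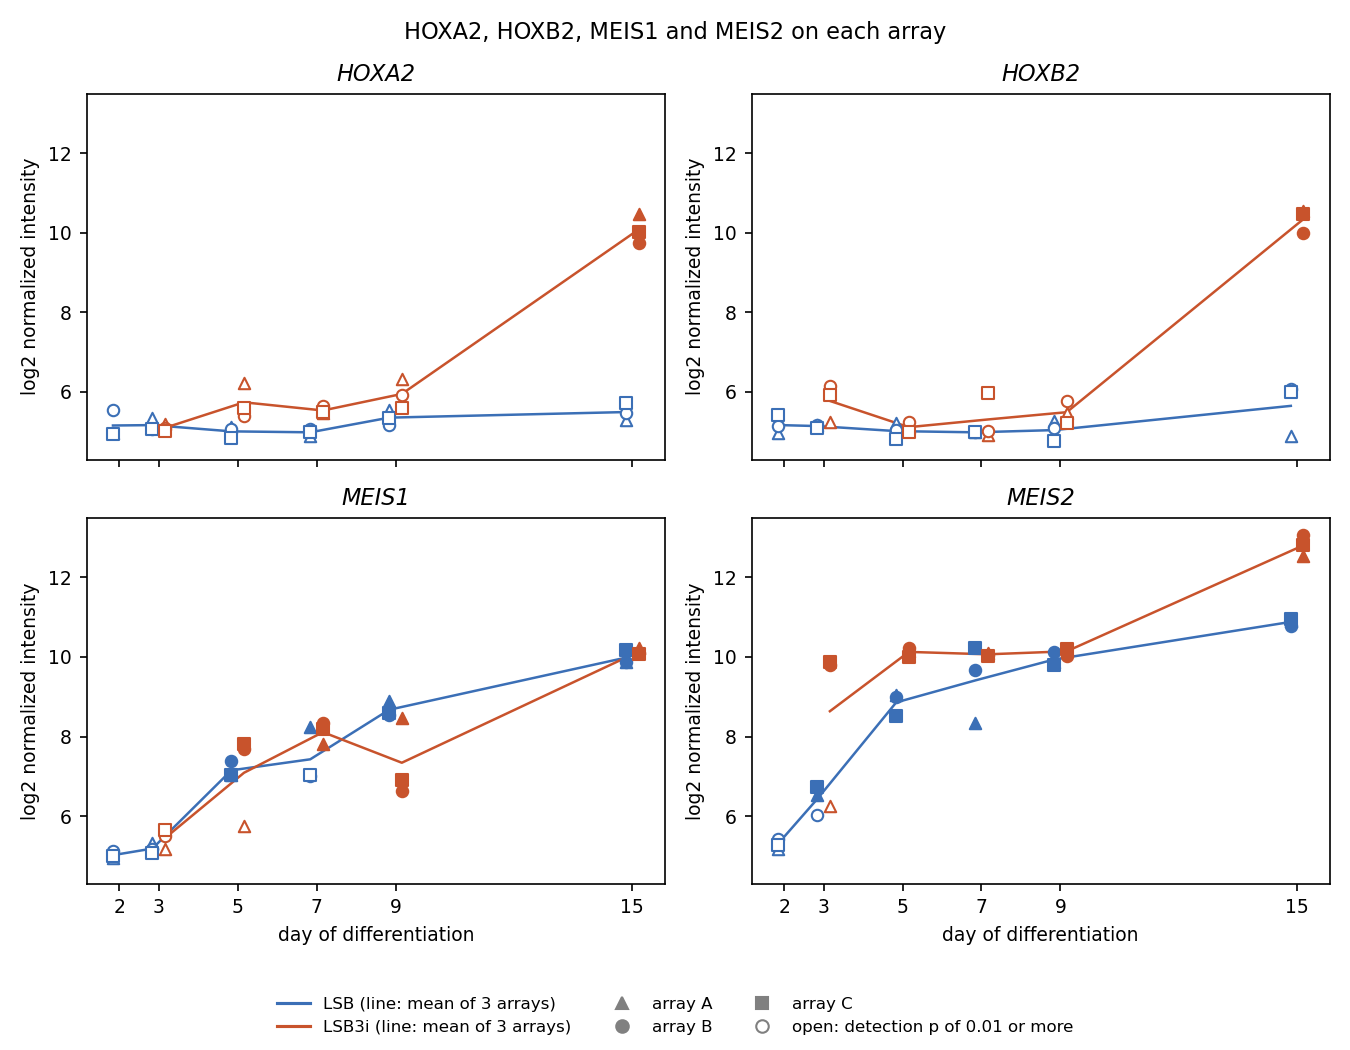
Log2 normalized intensity of each gene (vertical axis) by day (horizontal axis), LSB in blue and LSB3i in red, with 1 point per array (shape gives the letter, open points were not detected) and a line through the means of 3 arrays. HOXA2 and HOXB2 leave the background on the 3 LSB3i arrays of day 15, at 9.75 to 10.55, while MEIS1 and MEIS2 climb in both arms.

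HOXA2, the most anteriorly expressed HOX gene in the mouse hindbrain, read 10.48, 9.75 and 10.01 on LSB3i day 15 arrays A, B and C (mean 10.08 ± 0.37, SD). The signals behind these values were 1066, 797 and 872. On the LSB arrays of the same day it read 5.30, 5.46 and 5.72, none of them detected. The arms thus lay far apart, and the other 30 arrays together ran from 4.84 to 6.33 (median 5.32), all undetected. LSB3i exceeded LSB by 4.59 ± 0.22 at day 15 (adjusted p = 3.76e-15). Since the LSB level is at background, the linear difference is a lower bound, at least 9.66-fold, set against the lowest detected intensity of each LSB array. A second HOXA2 probe, for the same transcript, gave 9.84, 9.56 and 9.33 on the 3 LSB3i day 15 arrays and 4.68 to 7.05 on the other 30, again with none of those detected.

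HOXB2, its paralogue in the HOXB cluster, read 10.55, 10.00 and 10.48 on LSB3i day 15 arrays A, B and C (10.34 ± 0.30, SD), from signals of 1113, 917 and 1129. On LSB day 15 it read 4.89, 6.07 and 5.99. All 30 arrays outside LSB3i day 15 lay between 4.77 and 6.15 (median 5.15), and none detected the gene. The difference between the arms at day 15 was 4.69 ± 0.28, at least 11.6-fold (adjusted p = 3.44e-13). With the background left uncorrected, or in the authors' processed values, the differences were smaller, 2.76 and 2.72 for HOXA2 and 2.98 and 2.94 for HOXB2, and all 4 remained past both thresholds. The detection filter had fixed their direction here too, so this is no separate support.

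Both HOX genes were called between day 9 and day 15 of LSB3i, and in no earlier step. HOXA2 rose by 4.13 ± 0.22 from day 9 to day 15, at least 12.0-fold (adjusted p = 5.35e-14), and HOXB2 by 4.85 ± 0.28, at least 14.3-fold (adjusted p = 3.22e-13). Without the LSB3i A arrays before day 15 these steps were 4.32 ± 0.22 for HOXA2 (adjusted p = 9.81e-13) and 4.85 ± 0.30 for HOXB2 (adjusted p = 3.44e-11). Below the detection limit, the HOXA2 probe read slightly above LSB in all 3 LSB3i arrays of days 5, 7 and 9, while the second HOXA2 probe did so at day 5 and overlapped LSB at days 7 and 9. The differences of the first probe were 0.73 (adjusted p = 0.0488), 0.55 (adjusted p = 0.0524) and 0.60 (adjusted p = 0.0411), under the 2-fold threshold. Without the LSB3i A arrays they were 0.49, 0.59 and 0.41, with adjusted p of 0.219, 0.0417 and 0.183. No level can be read from such values. For HOXB2 the groups lay apart at day 3 alone among these earlier days, by 0.63 (adjusted p = 1), or 0.89 without array A (adjusted p = 0.222), both at background.

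From day 3 to day 15 the arms diverged for both HOX genes. In LSB3i, HOXA2 rose by 4.98 ± 0.22 (at least 9.29-fold) and HOXB2 by 4.57 ± 0.28 (at least 11.1-fold), with adjusted p of 1.31e-15 and 5.64e-13. In LSB the same interval gave 0.33 ± 0.22 for HOXA2 and 0.51 ± 0.28 for HOXB2, with both days at background (adjusted p = 0.245 and 0.156). The difference of the changes was 4.65 ± 0.31 for HOXA2 (adjusted p = 1.12e-11) and 4.06 ± 0.40 for HOXB2 (adjusted p = 1.36e-08). Without the A arrays the LSB3i rises were 5.03 and 4.31 (adjusted p = 2.01e-14 and 5.8e-11), and the differences of the changes were 4.70 and 3.80 (adjusted p = 3.99e-11 and 1.71e-07). Ordered by level, each HOX gene had LSB3i day 15 at the top, 4.13 units above the next group for HOXA2 and 4.57 for HOXB2, and among the other 10 groups every neighbour overlapped the next.

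MEIS1, known as a HOX cofactor and a regulator of blood stem cells, was undetected on days 2 and 3 of LSB (4.94, 5.11 and 5.00, then 5.32, 5.17 and 5.07). It reached 7.04, 7.38 and 7.04 on day 5, and all 3 arrays detected it. Day 7 gave 8.25 on array A, and 7.01 and 7.03 on B and C, which fell short of detection. The lowest detected intensity was 7.22 on day 7 B and 7.76 on day 7 C. On day 5 A, B and C it was 6.50, 6.60 and 6.86, so the lost detection is no sign of a lower level. The 3 arrays of LSB day 9 read 8.89, 8.53 and 8.60, above every LSB array of day 7. LSB day 15 was highest, at 9.88, 9.88 and 10.19.

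In LSB3i, MEIS1 was also undetected on day 3 (5.19, 5.50 and 5.66). On day 5 arrays A, B and C read 5.76, 7.70 and 7.82, on day 7 7.81, 8.33 and 8.19, and on day 9 8.47, 6.64 and 6.92. Array A stood apart from B and C on days 5 and 9, low on the first and high on the second. On days 5, 7 and 9, array A lay 0.18, 0.06 and 0.20 above the mean of B and C of the day measured before, and -1.99, -0.45 and 1.69 from that of its own day. On day 15 the 3 arrays came together at 10.22, 10.10 and 10.08. Arrays B and C thus read higher from day 3 to day 7, lower on day 9 and highest on day 15, while the LSB means were higher at each later day.

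Over the whole course MEIS1 rose in both arms. LSB day 15 exceeded LSB day 3 by 4.80 ± 0.41, at least 11.03-fold (adjusted p = 1.93e-09), and LSB3i day 15 exceeded LSB3i day 3 by 4.68 ± 0.41, at least 9.64-fold (adjusted p = 3.5e-10). The difference of the 2 changes was -0.11 ± 0.58 (95% confidence interval -1.30 to 1.08, adjusted p = 0.909). Without the A arrays the LSB3i rise was 4.55 (adjusted p = 1.68e-12) and the difference of the changes -0.24 (adjusted p = 0.641). At day 15 the arms overlapped, with a difference of 0.15 ± 0.41 (interval -0.69 to 0.99, adjusted p = 0.796).

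At day 9 the arms were apart: MEIS1 was lower in LSB3i by -1.33 ± 0.41 (adjusted p = 0.0155), and no LSB3i array reached the lowest LSB array. Without the LSB3i A arrays the difference was -1.89 ± 0.25 (adjusted p = 5.61e-06). The call was lost without LSB day 9 A (-1.22, adjusted p = 0.0568), LSB3i day 9 B (-0.98, adjusted p = 0.116) or LSB3i day 9 C (-1.12, adjusted p = 0.0822). It also stayed under 2-fold, with adjusted p under 0.05, with an offset of 50 (-0.97), without background correction (-0.79) and in the authors' processed values (-0.78). Within LSB3i, day 9 against day 7 gave -0.77 ± 0.41 (adjusted p = 0.713) over all arrays and -1.48 ± 0.28 (adjusted p = 0.00272) without the A arrays. From day 9 to day 15 of LSB3i it rose by 2.79 ± 0.41 (adjusted p = 4.21e-06), or by 3.35 ± 0.25 without the A arrays (adjusted p = 8.09e-10).

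The other steps of MEIS1 were near the thresholds. Day 5 exceeded day 3 by 1.97 ± 0.41 in LSB, at least 1.55-fold (adjusted p = 0.00349), and by 1.64 ± 0.41 in LSB3i, at least 1.17-fold (adjusted p = 0.0311). The LSB step was under 2-fold without background correction (0.82) and in the authors' processed values (0.81). The LSB3i step was lost without either of day 3 A (adjusted p = 0.247) and B (0.0621), and without either of day 5 B (0.33) and C (0.346), whereas without all the A arrays it was 2.17 ± 0.28 and called (adjusted p = 1.48e-05). In LSB, day 9 exceeded day 7 by 1.24 ± 0.41 (adjusted p = 0.0239) and day 15 exceeded day 9 by 1.31 ± 0.41 (adjusted p = 0.0143). The first was lost without LSB day 7 B (adjusted p = 0.0802) or C (0.0972) and without day 9 A (0.0785) or C (0.0525), and with median scaling (0.98, adjusted p = 0.0733). The second was lost without day 9 B (0.0502) or day 15 C (0.0514).

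MEIS2, a paralogue of MEIS1 with known roles in cranial neural crest and forebrain, was undetected on LSB day 2 (5.18, 5.44 and 5.28). Day 3 read 6.54, 6.04 and 6.72, with A and C detected. LSB then read 9.05, 9.00 and 8.53 on day 5 and 8.34, 9.66 and 10.23 on day 7, the most scattered LSB group. LSB levels went on to 9.89, 10.14 and 9.79 on day 9 and to 10.90, 10.79 and 10.96 on day 15. Neighbouring LSB days overlapped at days 5 and 7 and at days 7 and 9, and at no other step.

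In LSB3i, MEIS2 already read 9.79 and 9.88 on arrays B and C of day 3, and 6.25, not detected, on array A. That value of A lies within the LSB arrays of the same day. Day 5 read 10.15, 10.22 and 10.01, day 7 10.11, 10.06 and 10.03, and day 9 10.21, 10.02 and 10.19. From day 5 to day 9 all 9 arrays thus lay between 10.01 and 10.22. On day 15 it stood at 12.54, 13.06 and 12.82, above all 30 other arrays, from signals of 3782, 5606 and 4291.

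MEIS2 was called higher in LSB3i at day 15, by 1.92 ± 0.54, which is 3.80-fold (adjusted p = 0.00506). It remained called under every alternative run, with differences from 1.63 to 2.06. At day 3 the difference was 2.20 ± 0.54 (adjusted p = 0.112), carried by LSB3i arrays B and C and lowered by array A. Without the LSB3i A arrays it was 3.40 ± 0.33 (adjusted p = 1.05e-06). At day 5 the groups did not overlap, with a difference of 1.27 ± 0.54 (adjusted p = 0.215), and without the A arrays it was 1.26 ± 0.33 (adjusted p = 0.0212). Days 7 and 9 gave 0.66 ± 0.54 and 0.21 ± 0.54, with overlapping groups (adjusted p = 0.364 and 0.825), and without the A arrays 0.64 and 0.17 (adjusted p = 0.151 and 0.764).

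**Figure D2:**
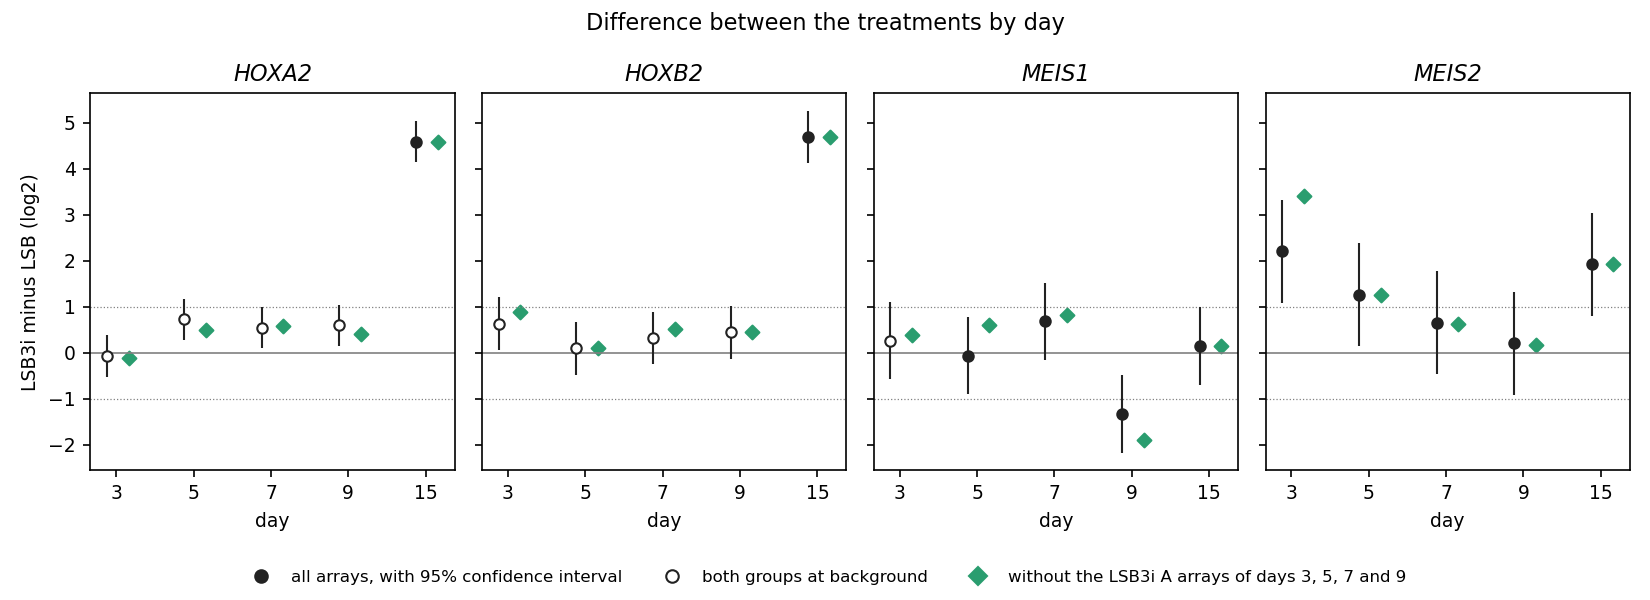
LSB3i minus LSB (log2, vertical axis) by day (horizontal axis) for each gene, as the fitted difference over all arrays with its 95% confidence interval (circles, open where both groups are at background) and with the 4 LSB3i A arrays before day 15 left out (green diamonds). Dotted lines mark the 2-fold threshold. MEIS2 at day 3 is 2.20 with all arrays and 3.40 without the A arrays, and MEIS1 at day 9 lies below zero.

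Over time MEIS2 rose in both arms. LSB day 15 exceeded day 2 by 5.58 ± 0.54, at least 17.3-fold (adjusted p = 1.04e-08), and day 3 by 4.45 ± 0.54 (adjusted p = 6.29e-07). The one LSB step called was day 5 against day 3, at 2.43 ± 0.54 (adjusted p = 0.00636). In LSB3i, day 15 exceeded day 3 by 4.17 ± 0.54 (adjusted p = 3.25e-07), or by 2.97 ± 0.33 without the A arrays (adjusted p = 1.16e-07), and day 9 by 2.66 ± 0.54 (adjusted p = 0.000268), or by 2.70 ± 0.33 without the A arrays (adjusted p = 1.31e-06). The difference of the changes from day 3 was -0.28 ± 0.77 (interval -1.86 to 1.30, adjusted p = 0.822), and without the A arrays it was -1.48 ± 0.45, called lower (adjusted p = 0.0148).

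The MEIS2 probe used here was designed on the transcript NM_172315. Of 3 further MEIS2 probes, those for NM_002399 and NM_172316 were detected on none of 33 arrays. The probe for NM_170677 was detected on 6, namely LSB day 9 A, LSB day 15 A and C, and all 3 of LSB3i day 15. It read 8.20, 8.18 and 8.27 on LSB3i day 15 A, B and C, above the 7.01 that was its highest value elsewhere, so both probes that saw MEIS2 were highest in that group.

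Counted over the members, 3 of 4 were called higher in LSB3i at day 15, beside 13.3% of all genes called higher there and 29.2% called in either direction. HOXA2 and HOXB2 entered the test through LSB3i day 15 alone, so the detection filter fixed their direction in every comparison with that group, and nothing is read from their part in these counts. At day 9, 1 of 4 was called, MEIS1, lower, beside 8.26% of genes lower and 16.6% in either direction. None was called at days 3, 5 and 7, where 0.259%, 3.22% and 19.3% of genes were. In LSB, 2 of 4, both MEIS genes, were called higher at day 15 against day 2 (26.8% of genes in either direction) and against day 3 (22.7%). In LSB3i all 4 were called higher at day 15 against day 3 (42.5%) and against day 9 (28.0%). The difference of the changes was called for the 2 HOX genes, beside 26.3% of genes.

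For single steps the counts were lower. In LSB, 2 of 4 were called at day 5 against day 3 (3.89% of genes in either direction), 1 at day 9 against day 7 (15.1%), 1 at day 15 against day 9 (19.8%) and none at day 3 against day 2 (7.03%) or day 7 against day 5 (9.77%). In LSB3i, 1 was called at day 5 against day 3 (1.88%), MEIS1, and none at day 7 against day 5 (0.996%) or day 9 against day 7 (0.498%). The step from day 9 to day 15 of LSB3i, in which all 4 were called, is also the one with the most genes called.

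Other HOX genes did not come up with HOXA2 and HOXB2. Of 39 HOX genes listed, 29 had a named probe here, and 6 passed the detection filter. HOXB1, which neighbours HOXB2 and marks rhombomere 4 in mouse, was detected on no array. HOXB3 was detected on 1 of the 3 LSB3i day 15 arrays by one of its probes, and HOXB4 to HOXB9 on none of them. HOXD1, HOXD3 and HOXD4, 3′ genes of the HOXD cluster, were not detected there either. HOXA genes other than HOXA2 were not analysed here.

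The remaining 4 that passed, HOXB6, HOXC11, HOXD12 and HOXD13, lie further from the 3′ end: HOXB6 is a central gene of its cluster, used in the trunk, and the other 3 are 5′ genes used in limb and tail. They were dim, with no signal above 476, and were detected in both arms on days 3 and 5. For HOXB6 this holds for the probe used, detected on 17 arrays, while a second HOXB6 probe was detected on no array. At day 15 LSB3i minus LSB was 0.54 for HOXB6 and -0.29 for HOXC11 (both at background), 0.96 for HOXD12 and 0.11 for HOXD13, with adjusted p of 0.148, 0.438, 0.0558 and 0.851. HOXD12 passed both thresholds without LSB day 15 A (1.17, adjusted p = 0.0399) or C (1.13, adjusted p = 0.0473).

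**Figure D3:**
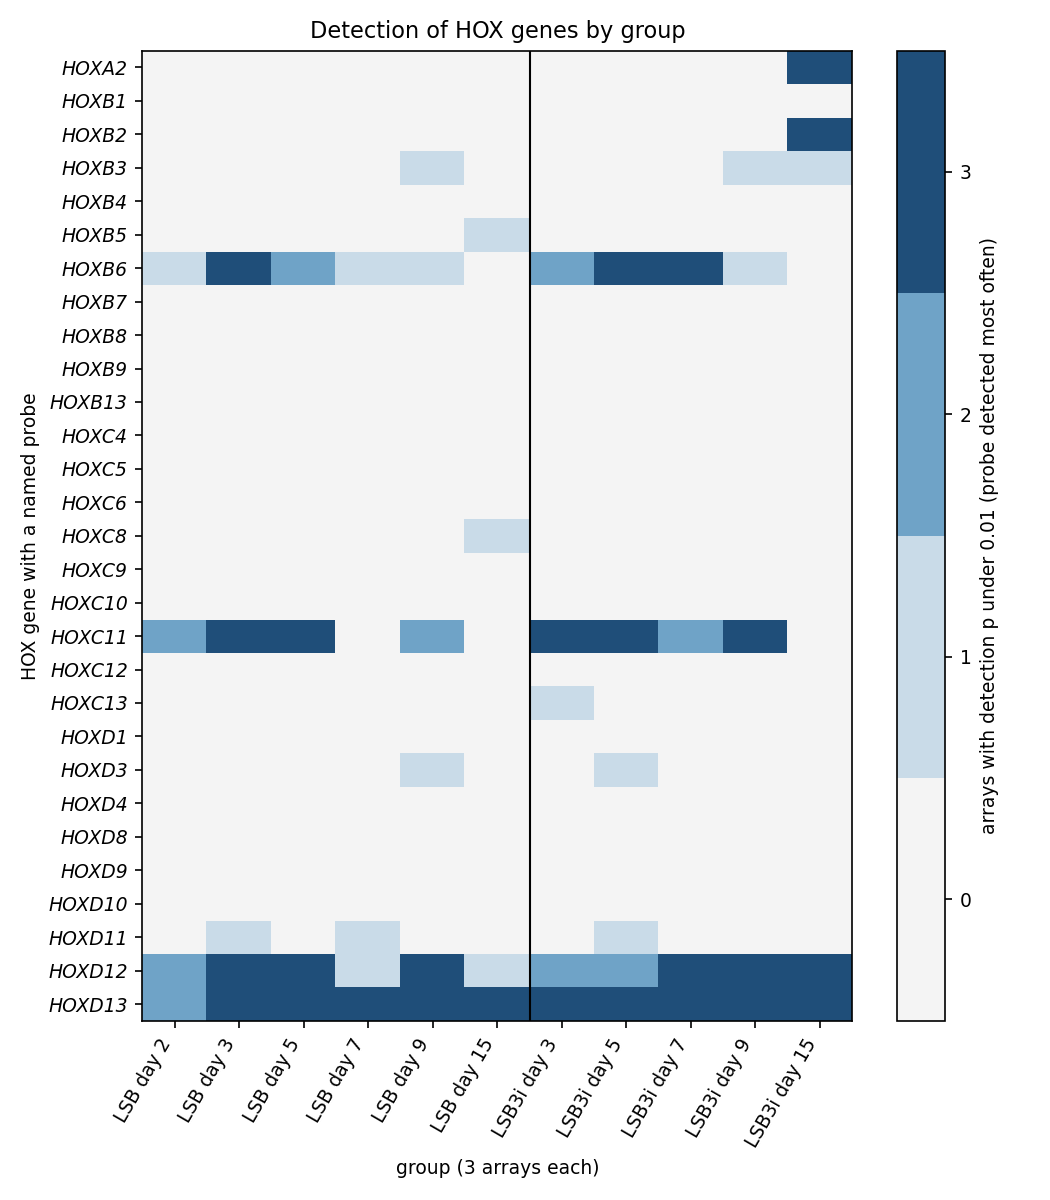
Number of the 3 arrays of each group (columns) on which each HOX gene with a named probe (rows) was detected, at its most often detected probe. HOXA2 and HOXB2 are detected in the LSB3i day 15 column and in no other, whereas HOXB6, HOXC11, HOXD12 and HOXD13 are detected in both arms. A second HOXB6 probe, not shown, was detected on no array.

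The TALE family, to which MEIS1 and MEIS2 belong, was tested through 8 genes. At day 15, 3 were called higher in LSB3i, beside 13.3% of all genes, and none lower, and the median difference was 0.13 against -0.10 over all genes. Beside MEIS2 these were PBX3, a DNA-binding partner of HOX and MEIS proteins, at 1.31 ± 0.18 (adjusted p = 1.82e-06), and MEIS3, known for a role in hindbrain patterning in frog, at 1.71 ± 0.52 (adjusted p = 0.00884). The MEIS3 call was lost without LSB day 15 B (adjusted p = 0.0934) or LSB3i day 15 C (0.0589), and fell under 2-fold without background correction and in the authors' processed values. Earlier, MEIS3 went the other way. It was called lower in LSB3i at day 9, by -1.43 ± 0.52 (adjusted p = 0.04). At days 5 and 7 it was at -1.20 and -1.26, not called (adjusted p = 0.22 and 0.0636). PBX2 was at -0.93 ± 0.23 (adjusted p = 0.00179), just inside 2-fold, and past it without LSB3i day 15 C (-1.13). PBX4, PKNOX1 and PKNOX2 were at -0.02, 0.12 and -0.23, with overlapping groups.

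Of 14 tested genes of forebrain and eye field, which mark positions in front of the hindbrain, 9 were called lower in LSB3i at day 15 and none higher, with a median of -3.38. Over all genes 15.8% were called lower there, with a median of -0.10. LHX2, needed for eye and cortex formation, was at least 130-fold lower (-7.74 ± 0.37, adjusted p = 3.76e-15). OTX2, a factor of forebrain and midbrain, was at -7.07 ± 0.30 (adjusted p = 5.23e-16), and the eye field gene SIX6 was at least 32.1-fold lower (-6.67 ± 0.38, adjusted p = 1.21e-13).

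Markers of midbrain and hindbrain did not move as a block at day 15, where 13.3% of all genes were called higher and 15.8% lower. Of 6 tested, IRX5, an Iroquois homeobox gene, was called higher (2.19 ± 0.41, at least 2.62-fold, adjusted p = 8.14e-05). FGF8, the signal of the midbrain-hindbrain boundary, was lower, at least 5.48-fold (adjusted p = 2.23e-11), and EPHA4, an ephrin receptor expressed in rhombomeres in mouse, was lower by -2.22 ± 0.43 (adjusted p = 0.000134). IRX3 was lower too, by -1.25 ± 0.37 (adjusted p = 0.00676). WNT1, also on this list, was at background in both arms at day 15. It was called higher in LSB3i on days 5, 7 and 9, at least 2.90-, 7.06- and 6.88-fold. The adjusted p were 0.0021, 1.12e-06 and 1.18e-05, over all arrays. Of 11 caudal genes, 2 passed the filter and 1 was called: FGF3, a signal made in the mouse hindbrain, was at least 4.01-fold lower (adjusted p = 2.28e-12). FGF3 passed the filter through LSB day 15 alone, which fixed its direction, so its p-value is no separate support. The other, WNT3A, a Wnt ligand of the dorsal neural tube and tail bud, was at background in both arms at day 15. It was called higher in LSB3i on day 7 (at least 4.83-fold, adjusted p = 4.9e-05) and day 9 (at least 9.66-fold, adjusted p = 8.45e-06), and without the A arrays by 5.25 ± 0.43 (adjusted p = 3.93e-09) and 4.44 ± 0.43 (adjusted p = 4.06e-08).

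Retinoic acid is known to activate 3′ HOX genes in neural tissue, so genes of its pathway were listed. Of 12 tested, 4 were called higher in LSB3i at day 15 and 2 lower, beside 13.3% and 15.8% of all genes. The median was 0.03, against -0.10 over all genes. The receptor genes RXRG (at least 2.24-fold, adjusted p = 2.27e-08) and RARB (at least 2.11-fold, adjusted p = 0.00121) were higher, and RARB stayed under 2-fold without background correction (0.88) and in the authors' processed values (0.86). So was RDH10, a retinol dehydrogenase that makes retinaldehyde (2.69 ± 0.31, adjusted p = 9.34e-08). ALDH1A1, which oxidises retinaldehyde, was lower by -5.11 ± 0.39 (adjusted p = 4.1e-11), and CRABP2, a carrier of retinoic acid, by -2.43 ± 0.87 (adjusted p = 0.0244). The CRABP2 call was lost without LSB day 15 A (adjusted p = 0.0538) or C (0.0612) or LSB3i day 15 C (0.0754).

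**Figure D4:**
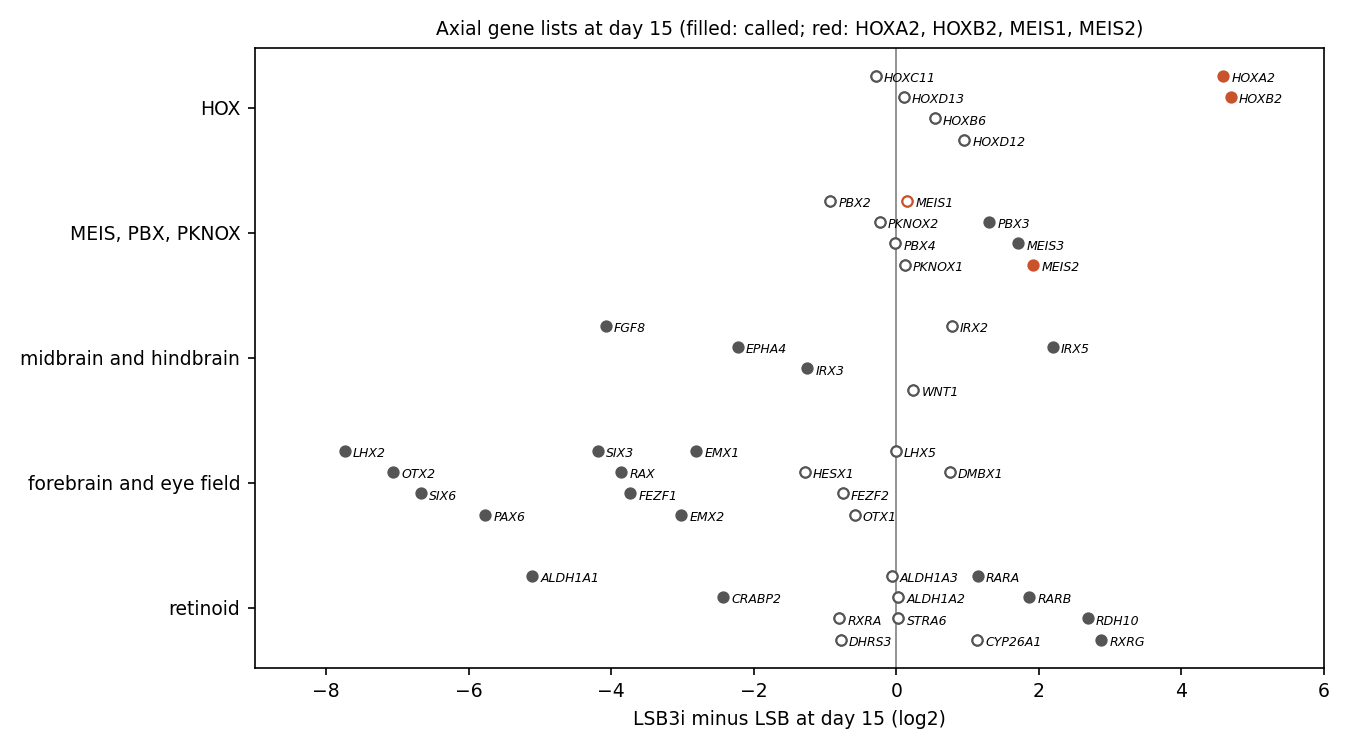
LSB3i minus LSB at day 15 (log2, horizontal axis) for each tested gene of 5 lists (rows, points staggered vertically for legibility), filled where called, with HOXA2, HOXB2, MEIS1 and MEIS2 in red. HOXA2 and HOXB2 stand at 4.59 and 4.69, and forebrain genes reach -7.74.

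Markers of cell types also differed between the arms at day 15. Over all genes 13.3% were called higher at that day and 15.8% lower. The summed intensity of 10 neuron markers was 160984 to 170891 on the LSB3i day 15 arrays against 7006 to 7758 in LSB, with 10 of 10 called higher. For 9 sensory neuron markers it was 24485 to 29255 against 643 to 733, with 4 of 5 tested called higher. For 12 neural crest markers it was 16546 to 20612 against 2885 to 3816, with 8 called higher and 1 lower, and PAX3 and MSX2 not detected in LSB3i. For 10 mesenchyme markers it was 35881 to 42870 against 13899 to 21655, with 4 of 9 tested called higher and 2 lower. Among the neuron and sensory markers, ELAVL4, NTRK3 and PRPH passed the detection filter through LSB3i day 15 alone, which fixed their direction.

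Crest markers were present before the HOX genes were: at day 9 of LSB3i their sum was already 14057 to 20438, when HOXA2 and HOXB2 were undetected. The neuron sum at that day was 19010 to 44116, and the mesenchyme sum was 32124 to 37761. Of 8 mesendoderm markers, TBXT, MIXL1 and SOX17 among them, and of 8 blood and endothelium markers, none was detected on LSB3i day 15 arrays. Of 7 subpallium markers, GSX1, GSX2, DLX2 and NKX2-1 were undetected there, while the sum was 4801 to 5673 against 1448 to 1628. The other 3 went both ways: DLX1 (at least 17.96-fold) and EBF1 (at least 27.1-fold) were called higher in LSB3i, with adjusted p of 2.53e-17 and 5.91e-12, and DLX5 was called lower (-4.16 ± 0.57, adjusted p = 1.08e-06). DLX1 passed the detection filter through LSB3i day 15 alone, which fixed its direction, so its p-value is no separate support. DLX1, EBF1, DLX5, WNT1 and WNT3A were named after their values were seen. The sum of 9 pluripotency markers was 1376 to 2190 against 7472 to 11894 in LSB, with 7 of 8 tested called lower. Over all genes 15.8% were called lower at day 15. LEFTY2, on that list and also named after its values were seen, adds to the LSB sum. It was undetected in LSB on days 2 to 9 and had a mean log2 value of 11.87 at LSB day 15. LEFTY2 passed the detection filter through LSB day 15 alone, so its direction among the 7 called lower was fixed. The part of these cell types in the HOX and MEIS results was not tested.

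The genes most like each member were ranked by Pearson's r over the 11 group means, a description without a test, since all genes share the same arrays. HOXA2 and HOXB2 correlated with each other at 0.974, MEIS1 with MEIS2 at 0.889, and HOX with MEIS genes at 0.519 to 0.643. For the HOX genes r rests on 1 group, as the other 10 are at background. Nearest to HOXA2 were POSTN (0.991), which encodes the matrix protein periostin, and DLX1 (0.990), FSTL5, SCN3B and APOD. Nearest to HOXB2 were PRPH (0.993), the intermediate filament of peripheral neurons, SVOP (0.991), PPP1R1C, APC2 and SCN2A.

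For MEIS1 the nearest were TMUB2 (0.970), TRIM13, RNF144A, CERK and DTNBP1, and for MEIS2 they were STOX2 (0.969), YAF2, MIR124-2HG, ZNF32 and ENAH. The HOX pattern was shared by many genes: 121 of 10037 correlated with HOXA2 above 0.95 and 113 with HOXB2. With MEIS1 it was 13 genes, and with MEIS2 it was 6.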

How the data were processed

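Total RNA of 33 samples of H9 cells was hybridized to Illumina bead arrays. The deposited non-normalized table gives 2 columns an array, a linear bead intensity and a detection p-value. Per the submitters' processing notes GenomeStudio was used, with no version given in the sources used here. The authors' processed table holds intensity values with nearly equal distributions (medians 172.4 to 172.7). Joined by probe ID it correlated with the non-normalized table at 0.227 to 0.290, so its rows were matched by their ranks over the 33 arrays (48780 of 48803 rows matched, r at least 0.983) and it entered as an alternative.

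Intensities were corrected with limma 3.58.1 in R 4.3.3 (neqc: normexp from detection p-values, offset 16, quantile normalization, log2). A probe was kept if any group detected it (p under 0.01) on each of its 3 arrays (14651 probes, 12708 with 1 gene symbol). Each gene was represented by its probe of highest mean log2 value, leaving 10038 genes. Of 48803 probes, 28098 had 1 symbol, 13 several and 20692 none in the annotation used. One model of 11 group means (lmFit and eBayes, 22 residual degrees of freedom) gave 18 comparisons, adjusted over all genes by Benjamini-Hochberg. HOXA2 and HOXB2 passed the filter through LSB3i day 15 alone. The median standard error of a difference was 0.281.

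The rule for named genes was the 4 members, each HOX and TALE gene past the filter, up to 3 called genes at each end of every other list at day 15, and the 5 genes most like each member. The members and the 14 lists were chosen with earlier results of these data known, so nothing about them is independent of those results. Array letters A, B and C were checked as pairs: deviations from group means correlated at 0.00384 for equal letters and -0.00152 for different ones on average. All 3 equal-letter values exceeded 0.1 in 2 of 55 pairs of groups. Both lay in LSB3i, days 5 and 7 (mean 0.138) and days 7 and 9 (mean 0.230). LSB3i days 3 and 5 averaged 0.134, and days 5 and 9 averaged -0.107. The letters thus went together between neighbouring early days of LSB3i. No block was fitted in the reported model. No 2 arrays held identical values.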

Additional observations from a re-analysis of the deposited data

Results flagged for a closer look

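The difference of the changes from day 3 to day 15 between LSB3i and LSB was called (limma) for 2 of the 4 genes, HOXA2 and HOXB2. Both passed the detection filter through LSB3i day 15 alone. That fixed the direction of the test, so the call adds no separate support. For HOXA2 the LSB3i change exceeded the LSB change by 4.65 on the log2 scale, and for HOXB2 by 4.06. All 3 LSB3i arrays of day 15 lay above every other array for both genes, and the LSB arrays of both days were at background, so these are not measures of a fold in LSB. For MEIS1 the same difference was -0.11 (adjusted p = 0.909), and for MEIS2 it was -0.28 (adjusted p = 0.822).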

How the results depend on the processing

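The day 15 calls of HOXA2, HOXB2 and MEIS2, and the calls of all 4 genes from day 3 to day 15 of LSB3i, held under every alternative that tested them. For HOXA2 and HOXB2 this is no separate support. Both were undetected in every group but LSB3i day 15, and requiring detection on at least 17 arrays removed them from the test. Of 330 recomputed counts of called members, 277 stayed within 1.5 times the reported count. Of 1179 recomputed gene values, 1085 kept direction and side of the threshold, 38 lost the call, 25 gained it and 31 changed sign. A slide block was not run, because no slide was found in the files used here. The cause of the changes below was not tested except where stated.

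With the array letters as a replicate block, 3 members were called at day 15 (LSB3i against LSB) and no count of called members changed. Requiring detection on at least 17 arrays removes HOXA2 and HOXB2 by construction, which left 1 member called at day 15 between the arms, 2 over LSB3i day 3 to 15, 0 for the difference of changes and 2 for LSB3i day 9 to 15. Without any detection filter, 0 were called at LSB3i day 5 against 3.

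LSB3i against LSB at day 9 had 0 members called with an offset of 50, without background correction and in the authors' processed values. The LSB step from day 7 to 9 had 0 in these 3 settings, with only the groups compared and with array weights. With median scaling the 1 member called in that step was HOXB2, at background, in place of MEIS1 (0.98, adjusted p = 0.0733). It had 2 with median scaling over all probes, an alternative added after seeing the data. Without background correction and in the processed values, the LSB step from day 3 to 5 had 1 and the LSB3i step 0. The LSB3i step had 0 with only the groups compared and 2 with the mean of a gene's probes.

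At day 3 between the arms, 1 member was called (MEIS2) with median scaling, with array weights and without the LSB3i A arrays. At day 5, 1 was called (MEIS2) with the mean of probes, only the groups compared, array weights and without the A arrays. At day 7, median scaling called 1 (HOXB2, at background in both arms) and scaling over all probes 2 (MEIS1 and MEIS2). That last scaling, set by probes mostly at background, moved the median of all genes at day 7 from 0.086 to 1.389. For the LSB step from day 2 to 3, 1 was called (MEIS2) with only the groups compared, array weights and without the A arrays. Median scaling called 2 in the LSB step from day 5 to 7 (both HOX genes, at background) and 2 from day 9 to 15, and scaling over all probes 0 from day 9 to 15. For LSB3i day 9 against 7, 1 was called (MEIS1) without the A arrays and with array weights.

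Signs changed as follows, in values that did not pass the test in the reported fit. MEIS1 at day 5 between the arms became 0.015 (offset 50), 0.031 (no background correction), 0.03095 (processed values), 0.60 (without the A arrays) and 0.43 (array weights). MEIS2's difference of changes became 0.20 (offset 50), 0.42 (no background correction), 0.44 (processed values) and 0.70 (mean of probes). PBX4 at day 15 became 0.0028, 0.065, 0.0018 and 0.093 without background correction, with median scaling, in the processed values and with array weights. Scaling over all probes gave MEIS1 -0.0040 and HOXD13 -0.0021 at day 15 between the arms, MEIS1 -0.76 and MEIS2 -0.85 for LSB day 7 against 5, and MEIS2 0.16 and -0.020 for LSB3i day 7 against 5 and 9 against 7. The mean of probes gave MEIS2 0.016 and -0.0545 for those same 2 LSB3i steps.

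Leaving out 1 array at a time, called members ranged from 0 to 1 between the arms at days 3, 7 and 9 and for LSB days 7 to 9 and 9 to 15, and from 0 to 2 for LSB3i days 3 to 5. MEIS1 ranged from -0.42 to 0.60 at day 5 between the arms and from -0.13 to 0.49 for LSB day 7 against 5. MEIS2 ranged from -0.0088 to 0.93 for LSB day 9 against 7 and from -1.475 to 0.34 for the difference of changes. At day 15 PBX4 ranged from -0.32 to 0.35 and PKNOX1 from -0.099 to 0.43. Signal over background limits HOXA2 and HOXB2 outside LSB3i day 15, where they have upper bounds only.

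Counts of called genes over all 10038, the background of the member counts, also moved. Each is given with its lowest and highest value over the alternatives that left out no single array. Between the arms it was 26 (16 to 224) at day 3, 323 (169 to 639) at day 5, 1938 (714 to 7191) at day 7, 1664 (786 to 1903) at day 9 and 2927 (1661 to 3148) at day 15. LSB day 15 gave 2690 (1369 to 2920) against day 2 and 2282 (1050 to 3575) against day 3, LSB3i day 15 against day 3 gave 4267 (2653 to 5372), and the difference of changes gave 2640 (1744 to 2845). The LSB steps gave 706 (263 to 1195), 390 (223 to 630), 981 (275 to 6570), 1517 (576 to 5852) and 1985 (903 to 3092) in order of day, and the LSB3i steps 189 (0 to 655), 100 (0 to 722), 50 (0 to 335) and 2811 (1477 to 5385).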
